A study of Mus musculus with 40 samples.

Results

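The genes described here are the protein-coding genes of the ribosome and their processed pseudogenes, as the count tables of mouse aorta and kidney list them. They were chosen by symbol (Rpl or Rps followed by a digit, or Rplp0 to Rplp2, without the Rps6k kinases), by a biotype of protein coding or processed pseudogene, and by a mean of at least 1 CPM, a count scaled to a common library total, in the tissue. In aortas, 71 of 90 matching coding rows and 68 of 289 matching pseudogene rows met the rule, so 139 of 55335 rows of the table are members. In kidneys, 72 of 91 coding rows and 55 of 289 pseudogene rows met it, which makes 127 members of 55382 rows. Both tissues share 70 coding members and 55 pseudogenes. Rpl3l and Rps18-ps5 are members only in kidneys, and Rpl24 and 13 pseudogenes only in aortas. The weakest pseudogene inside the threshold in aortas was Rps15a-ps3 at 1.16 CPM and the strongest outside was Rpl19-ps7 at 0.973 CPM, while in kidneys Rps19-ps6 at 1.09 CPM was inside and Rpl28-ps3 at 0.761 CPM outside. All members passed the expression filter of the tests.

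A ribosome joins a small and a large subunit, each built from ribosomal RNA and a set of small proteins that are named Rps and Rpl. Their mRNAs are among the most abundant of any cell, share a pyrimidine-rich 5′ end (the TOP motif) and are translated in step with growth signals through mTOR. The mouse genome also holds many processed pseudogenes of them, intronless DNA copies of the mRNAs that were inserted elsewhere by retrotransposition. Since such a copy can differ from its gene by a few bases only, a read from the mRNA can also match the copy, and a count on a pseudogene row is therefore not by itself a transcript of the pseudogene.

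The RNA came from aortas and kidneys of mice with (WT) or without (KO) the EGF receptor in endothelial cells. The labels spell the standard diet SD and the study's text SFD. Per the study's methods, WT mice lacked loxP sites and carried the same Cre, so that all groups share it. The labels neither tie aortas to kidneys of the same mouse nor say whether libraries come from separate mice, so p-values measure the spread between these samples. The deletion was made by crossing EGFRflox/flox C57BL/6 mice with Tek-cre mice, whose Cre is driven by the Tie2 promoter. The study's discussion mentions reports of haematopoietic expression in Tie2 models, so the deletion may not be limited to endothelial cells. Mice received a standard diet (SD, 10% of energy from fat) or a high-fat diet (HFD, 60%). HFD was given over 18 weeks to mice that were 6 weeks old at its start, after some days on a mixture of both diets, and 5 libraries were made for each genotype, diet and tissue, 40 in all. Library sizes ranged from 17520161 to 36452741 counts in aortas and from 19643033 to 48833447 in kidneys. FPM stands here for CPM after TMM normalization of the library sizes. Egfr itself, which many cells outside the endothelium also express, had 39.6 ± 8.93, 40.5 ± 6.36, 44.0 ± 5.70 and 44.5 ± 6.58 FPM in aortas of WT SD, WT HFD, KO SD and KO HFD (SD, n = 5 each) and 56.3 ± 5.81, 40.5 ± 11.3, 53.1 ± 4.33 and 42.3 ± 10.4 FPM in kidneys, so the group means of whole-tissue RNA lie within each other's spread between genotypes. Smooth muscle markers summed to 25095 to 40585 FPM in aortas and 71.6 to 114 FPM in kidneys, with Cnn1 and Tagln at 0. Proximal tubule markers summed to 19673 to 52157 FPM in kidneys and to at most 1.69 FPM in aortas. Endothelial markers, without Cdh5 at 0, summed to 282 to 1805 FPM in aortas and 107 to 338 FPM in kidneys.

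Libraries that stand apart bear on the pseudogene members more than on most genes, as they do on other processed pseudogenes. In aortas R-1 (WT SD) and R-12 (KO SD), and in kidneys a1 (KO HFD) and a12 (WT HFD), held nearly the same counts. Their median chi-square over genes was 0.0277 and 0.0269, where sampling noise alone gives 0.455 and the lowest of the 189 other pairs of libraries gave 1.60 and 1.62. They differed by less than the sampling noise although the labels place them in different groups. They were also the deepest libraries, with 36419598 to 36452741 counts in aortas against at most 23683293 elsewhere, and 48788716 to 48833447 in kidneys against at most 31369285. Calls, sums and the main medians are therefore given with and without them, and levels, marker values and counts over other gene lists with all libraries. In addition, 16 coding ribosomal protein rows in aortas and 15 in kidneys were at 0 in every library. Of these, 12 lie on chromosomes 9 and X, where none of the 7067 genes on chromosomes 9, X, Y and MT had a count in aortas (7072 in kidneys), and Rpl13 lies on chromosome 8. The rows at 0 include Rpl10, Rpl14, Rpl29, Rpl36a, Rpl39, Rpl4, Rplp1, Rps25, Rps27l, Rps27rt and Rps4x, genes that every cell uses among them, so nothing can be said about their expression.

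The sequences below show how close the copies are to their genes, for the pseudogenes on which the results turn. They are taken from GENCODE M21 transcripts on GRCm38, with coding positions counted from 1 at the A of the start codon and differing bases in capitals. Rpl35a encodes a protein of the large subunit. Its copies Rpl35a-ps2, Rpl35a-ps3, Rpl35a-ps4 and Rpl35a-ps6 share 1 sequence over 333 aligned bases, which differs from the mRNA only by G156A (the gene's base, the position, the copy's base). The coding stretch around this base of Rpl35a (chr16:33056453-33060189, + strand) and of Rpl35a-ps2 (chr1:181242111-181242230, - strand) read as follows.
Rpl35a: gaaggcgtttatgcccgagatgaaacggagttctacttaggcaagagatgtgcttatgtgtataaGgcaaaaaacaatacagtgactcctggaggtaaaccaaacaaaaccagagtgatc
Rpl35a-ps2: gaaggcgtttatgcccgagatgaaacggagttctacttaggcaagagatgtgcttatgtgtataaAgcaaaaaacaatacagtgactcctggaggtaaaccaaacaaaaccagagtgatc

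Rps12 and Rps3a1 encode proteins of the small subunit and Rpl31 one of the large subunit. Their copies Rps12-ps24, Rps3a2 and Rpl31-ps9 are shown because they were the members that passed a test between genotypes, in the fit without the near-identical libraries. Rps12-ps24 lacks 15 coding bases (positions 196 to 210, in capitals in the gene) and carries 7 substitutions, of which G147C, T185C and G258T fall in the stretch shown. The gene lies at chr10:23785183-23787275 (- strand) and the stretch of the copy at chr8:36025893-36025997 (+ strand).
Rps12: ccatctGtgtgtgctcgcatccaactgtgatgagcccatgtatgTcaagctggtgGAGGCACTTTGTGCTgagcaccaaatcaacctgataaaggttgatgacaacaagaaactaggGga
Rps12-ps24: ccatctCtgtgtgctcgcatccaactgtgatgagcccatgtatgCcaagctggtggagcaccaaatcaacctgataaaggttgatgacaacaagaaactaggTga
Rpl31-ps9 differs from its mRNA by 2 substitutions, C237T and C363T. The gene is at chr1:39367842-39371911 (+ strand), and the stretch of the copy is at chr1:129801390-129801539 (- strand).
Rpl31: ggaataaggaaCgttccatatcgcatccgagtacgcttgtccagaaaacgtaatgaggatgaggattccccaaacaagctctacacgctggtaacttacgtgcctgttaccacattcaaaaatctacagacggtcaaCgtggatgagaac
Rpl31-ps9: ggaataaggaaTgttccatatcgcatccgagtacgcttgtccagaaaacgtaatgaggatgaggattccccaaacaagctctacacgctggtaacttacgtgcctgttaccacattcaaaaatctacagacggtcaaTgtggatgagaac
Rps3a2 differs from Rps3a1 by 4 substitutions, of which T534C, A645T and T668C fall in the stretch shown. Rps3a1 is at chr3:86137940-86142702 (- strand) and the stretch of Rps3a2 at chr14:88123129-88123284 (- strand).
Rps3a1: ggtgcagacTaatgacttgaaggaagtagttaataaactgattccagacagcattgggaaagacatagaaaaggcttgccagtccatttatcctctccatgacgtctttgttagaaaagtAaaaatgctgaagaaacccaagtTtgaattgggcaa
Rps3a2: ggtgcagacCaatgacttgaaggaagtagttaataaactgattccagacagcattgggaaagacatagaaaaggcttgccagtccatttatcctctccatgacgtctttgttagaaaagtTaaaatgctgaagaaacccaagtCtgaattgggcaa

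Rpl21-ps10 is shown because it was called in kidneys. It differs from Rpl21, a gene of the large subunit at chr5:146832890-146837032 (+ strand), by 7 substitutions, and G237A, G282T and T336C lie in its stretch at chr3:38107578-38107697 (- strand).
Rpl21: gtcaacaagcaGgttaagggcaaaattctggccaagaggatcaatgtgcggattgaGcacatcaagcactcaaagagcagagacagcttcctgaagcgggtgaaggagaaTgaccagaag
Rpl21-ps10: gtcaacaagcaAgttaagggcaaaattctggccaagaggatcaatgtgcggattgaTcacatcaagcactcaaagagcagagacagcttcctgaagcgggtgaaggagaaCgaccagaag
Rpl10-ps6 and Rpl36a-ps2 stand for the copies of genes at 0. Rpl10-ps6 differs from Rpl10 (chrX:74270812-74273135, + strand) by C457T alone, and the stretch shown lies at chr19:37295297-37295396 (- strand) in an intron of Ide.
Rpl10: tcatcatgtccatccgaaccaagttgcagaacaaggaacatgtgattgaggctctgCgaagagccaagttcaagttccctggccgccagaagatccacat
Rpl10-ps6: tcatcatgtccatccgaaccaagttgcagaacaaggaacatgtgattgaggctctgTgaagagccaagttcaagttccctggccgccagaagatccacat
Rpl36a-ps2, in an intron of Ddah1, is identical to Rpl36a over its whole length, and its stretch at chr3:145879020-145879119 (+ strand) equals coding bases 1 to 100 of the gene.
Rpl36a-ps2: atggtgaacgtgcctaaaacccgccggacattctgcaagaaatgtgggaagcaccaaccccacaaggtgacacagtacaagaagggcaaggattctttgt

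All 68 aortic pseudogene members are single-exon copies, and their identity to the mRNA of the gene in their symbol ranged from 87.54% to 100%, with a median of 99.1%. At least 98% identity was found for 59, 95% to 98% for 7 and less for 2, and 10 were identical. They lie on 18 chromosomes and are copies of 37 genes. In the annotation, 47 are intergenic, 20 lie in introns and 1, Rps12-ps4, overlaps an exon of Nphs1 on the opposite strand. Every window of 150 bases, the length of a read, occurred in another annotated gene for 17 copies, while 32 shared no such window. In contrast, 51 of the 73 coding members shared no window of this length, and Rps27 shared the most. How reads with several positions were counted is not given in the sources used here, and reads on copies and genes cannot be separated from the tables. Rpl9-ps6, Rpl36a-ps1 and Rps18-ps5 carry pseudogene names, but the tables list them as protein coding and they are counted here as such.

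The pyrimidine tract of TOP mRNAs was searched at the start sites of the coding genes. A C followed by at least 4 pyrimidines began within 5 bases of the RefSeq start in 26 of 52 matched coding members and in 21.2% of 27025 genes with a start site. Exactly at the first base it stood in 23.1% of the coding members and in 3.0% of all genes. No such tract was found at the listed starts of Rps12 and Rps3a1, and Rpl31 has it from 3 bases before the start. Rpl35a is shown as an example with it at the first base (GRCm38.p6, chr16:33056467-33056496, + strand, the tract in capitals).
Rpl35a start: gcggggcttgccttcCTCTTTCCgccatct

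Coding members took 3.67% of all counts in aortas and 1.81% in kidneys on average. Per kilobase of exon, the highest levels in aortas were those of Rps3a1 (1192 CPM per kb), Rps15 (1160), Rpl36 (902), Rpl41 (854) and Rps29 (729). In kidneys Rps15 (575 CPM per kb), Rpl41 (574), Rplp0 (462), Rps2 (443) and Rps3a1 (431) led. Rps10 was the lowest coding member in both tissues, with 1.25 and 1.38 CPM per kb, although every ribosome contains its protein. Its copy Rps10-ps2 held 84.1 CPM in aortas and 43.0 in kidneys, against 2.89 and 3.20 CPM for Rps10 itself. Other low coding members in aortas were Rpl24 (1.71 CPM per kb), Rpl13a (8.96), Rps19bp1 (15.3) and Rpl7l1 (25.5), and in kidneys Rpl3l (1.71), Rps18-ps5 (5.05), Rpl13a (8.04) and Rpl22l1 (8.15). Rps19bp1 matches the symbol rule but encodes a binding protein of Rps19 and not a part of the ribosome, with 16.5 and 21.6 CPM.

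Paralogs of common ribosomal proteins differed in level. Rpl22l1, the paralog of Rpl22, had 58.1 CPM in aortas and 16.2 in kidneys, and Rpl7l1, the paralog of Rpl7, had 89.1 and 91.8 CPM. Rpl3l, which replaces Rpl3 in striated muscle, had 0.028 CPM in aortas and 2.81 in kidneys. Rpl39l had 0.202 and 0.009 CPM and Rpl36al 0.587 and 0.891 CPM, while Rpl10l, known from testis, was listed at 0. Of the stalk proteins, which bind translation factors, Rplp0 had 1066 and 766 CPM and Rplp2 336 and 140 CPM, with Rplp1 among the rows at 0. Across tissues, whose tables were counted separately, 67 of 70 coding members had a higher mean CPM in aortas, with a median ratio of 2.12 from 0.764 (Rps19bp1) to 3.70 (Rps29). The ratio was above 1 for all 55 pseudogenes in both tissues, with a median of 2.44 and the highest value for Rps12-ps24 (9.63). CPM was not normalized across tissues, and the share of all genes higher in aortas was not counted. These ratios therefore need not be particular to the members.

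Among pseudogenes, 15 reached 100 CPM in aortas, 28 lay between 10 and 100, 8 between 5 and 10 and 17 below 5. The numbers in kidneys were 5, 26, 7 and 17. The highest levels belonged to copies of genes that are at 0 in the tables. Rpl10-ps6 held 913 CPM in aortas and 289 in kidneys, Rpl10-ps5 held 791 and 363, and Rpl14-ps1 held 721 and 295. They were followed by Rpl36a-ps2 (350 and 114), Rpl13-ps6 (347 and 130), Rpl39-ps (269 and 67.7) and Rps25-ps1 (142 and 80.3), and with lower levels by Rps4x-ps (39.1 and 10.4), Rpl36a-ps3 (28.8 and 18.2) and Rpl13-ps3 (8.0 and 2.18). With Rpl29-ps5 they make 11 copies of genes at 0 in either tissue. Copies of counted genes were led by Rps6-ps4 (220 CPM in aortas and 74.8 in kidneys), Rpl35a-ps3 (218 and 88.0), Rpl35a-ps6 (190 and 79.7), Rps12-ps3 (172 and 45.6), Rpl35a-ps2 (165 and 67.6), Rpl35a-ps4 (162 and 66.6), Rpl23a-ps3 (159 and 60.2) and Rpl38-ps2 (123 and 58.7).

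The copies from 30 to 100 CPM in aortas, besides Rps10-ps2 and Rps4x-ps, were Rpl9-ps4 (82.1), Rpl6l (76.9), Rpl31-ps8 (65.8), Rps16-ps2 (65.6), Rps2-ps6 (59.6), Rps12-ps4 (39.5), Rpl10a-ps1 (36.8), Rpl27-ps3, Rpl31-ps9 (34.1), Rpl17-ps3 (32.2) and Rpl17-ps10 (32.1). Copies with a mean from 5 to 30 CPM in aortas included more than 1 copy of some genes, as Rpl17-ps5 and Rpl17-ps9, Rpl21-ps8 and Rpl21-ps10, and Rps13-ps1, Rps13-ps2 and Rps13-ps5. Others of this range included Rpl5-ps1, Rps12-ps24, Rpl28-ps1, Rpl34-ps1, Rpl19-ps11, Rpl7-ps7, Rps3a2, Rps2-ps8, Rpl9-ps7, Rps10-ps1, Rpl7a-ps5 and Rpl30-ps1, beside Rpl36a-ps3 and Rpl13-ps3. None of the kidney copies of at least 5 CPM was below 5 CPM in aortas.

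The question of the design is whether endothelial EGFR or diet changes these genes. Summed over the 71 coding members, aortas held 3.82 ± 0.974% of counts in WT SD, 3.86 ± 0.999% in WT HFD, 3.76 ± 1.06% in KO SD and 3.26 ± 0.751% in KO HFD (SD, n = 5 each). Within groups, the share ranged from 2.49% (R-5) to 4.69% (R-2) in WT SD and from 2.1% (R-20) to 4.09% (R-16) in KO HFD. The groups overlapped, and the spread among libraries of 1 group exceeded each difference between groups. Over both diets the mean coding share in KO was 91.5% of that in WT (90.3% without R-1 and R-12). The 68 pseudogenes held 0.651 ± 0.188%, 0.657 ± 0.215%, 0.604 ± 0.186% and 0.499 ± 0.130% of counts in the same order, and their share in KO was 84.3% of that in WT (82.3% without R-1 and R-12). For each 100 counts on coding members there were 16.9 ± 0.835, 16.7 ± 1.66, 16 ± 0.598 and 15.2 ± 0.728 counts on pseudogenes.

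Markers of other cells and other TOP mRNAs differed between these libraries. Globin and other red cell transcripts summed to 80139 FPM in R-11 and 61118 in R-16, the highest coding shares of KO SD and KO HFD, and to 44491 in R-7, the highest of WT HFD. In R-10 and R-20, the lowest of the HFD groups, they summed to 2342 and 1787 FPM, in R-5, the lowest of WT SD, to 13800 FPM, and over all aortas the range was 418 (R-18) to 80139 FPM with Alas2 at 0. Other TOP mRNAs summed to 6746 FPM in R-20 and 10017 in R-7, with 2 of 22 genes at 0. Lymphoid markers summed to 84.2 FPM in R-11 and 130 in R-16 against at most 14.9 elsewhere, with Cd3g and Cd3e at 0, and macrophage markers to 2132 FPM in R-16 against 235 to 543 elsewhere. Smooth muscle markers summed to a median of 32865 FPM in WT SD, 37153 in WT HFD, 26872 in KO SD and 28184 in KO HFD. Adipocyte markers ranged from 91.5 (R-10) to 659 FPM (R-2). For KO against WT over both diets, 8 of 8 adipocyte markers had a log2 fold change below 0 (median -0.96), 3 of 5 smooth muscle ones did (median -0.12), and 6 of 7 endothelial ones above 0 (0.47), 9 of 9 lymphoid ones (2.01), 6 of 6 macrophage ones (0.64) and 6 of 6 red cell ones (0.31), with 0 of them called in edgeR. The red cell sums nevertheless had lower medians in KO than in WT, 9666 against 13800 FPM under SD and 4483 against 8920 under HFD. Lymphoid medians in KO and WT were 6.89 and 4.70 FPM under SD and 4.75 and 7.70 under HFD. The positive estimates of these 2 lists thus go with the high sums of R-11 and R-16. The part of all these markers in the sums and in the comparisons below was not tested. In such tissue RNA, fewer cells of a type and less RNA per cell cannot be told apart.

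**Figure D1:**
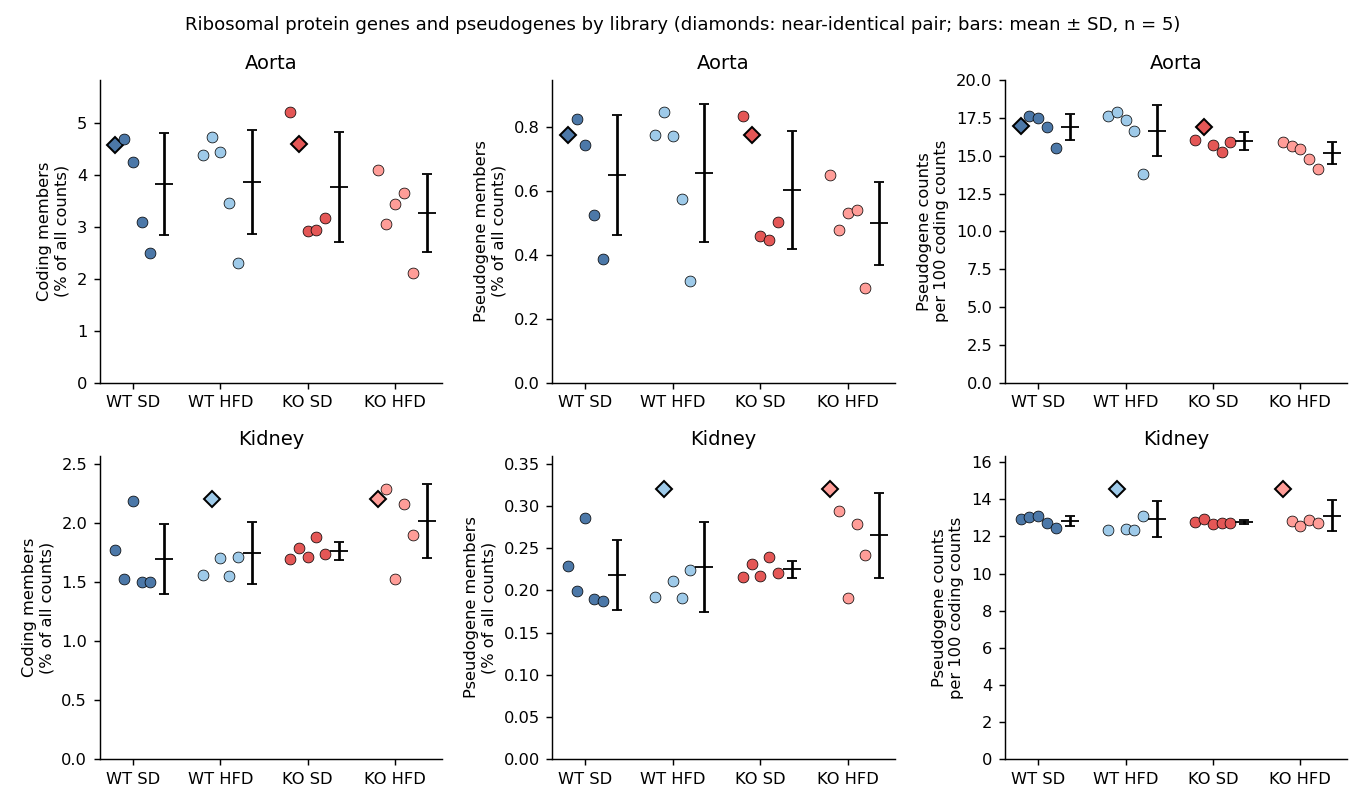
Share of all counts (percent) on coding ribosomal protein members and on pseudogene members, and pseudogene counts per 100 coding counts, for each of the 20 aorta and 20 kidney libraries by group, with mean ± SD (n = 5) and diamonds for the near-identical libraries. In aortas the coding share ranged from 2.1% to 5.20% and the groups overlap. In kidneys the near-identical libraries a1 and a12 stand above the others at 14.6 pseudogene counts per 100 coding counts.

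No difference of coding genes between genotypes was detectable in aortas. For KO against WT over both diets, 0 of 71 coding members and 0 of 68 pseudogenes had an adjusted p under 0.05 in edgeR's quasi-likelihood test, where 0.0198% of the 15122 tested genes did. At an unadjusted p under 0.05 there were 0 coding members (8.78% of all genes), and DESeq2's Wald test and edgeR's likelihood ratio test called 0 coding members and 2 pseudogenes each, Rpl31-ps9 and Rps12-ps24. The median log2 fold change of coding members was -0.16, and 67 of 71 estimates were below 0 (48.7% of all genes were). The smallest p-values belonged to Rps29, Rps28 and Rpl9-ps6 among lower estimates and to Rpl24, Rpl23a and Rpl34 among higher ones. Rps29, of the small subunit, had 698, 731, 631, 484 and 379 FPM in WT SD (R-1 to R-5), 667, 803, 685, 532 and 251 in WT HFD (R-6 to R-10), 874, 702, 321, 286 and 346 in KO SD (R-11 to R-15) and 431, 337, 384, 475 and 186 in KO HFD (R-16 to R-20). The groups overlap, and its log2 fold change was -0.45 (standard error 0.24, adjusted p = 0.627 in edgeR). Rps28 had a log2 fold change of -0.40 (standard error 0.24) and Rpl24, near the expression threshold, 0.24 (standard error 0.28), with edgeR adjusted p of 0.672 and 0.845. Separate tests under SD and under HFD called 0 members too, where 0% and 0% of all genes were called. At an unadjusted p under 0.05 there were 0 coding members and 2 pseudogenes under SD (2.28% of all genes) and 0 and 22 under HFD (5.85%), and DESeq2 and the likelihood ratio test each called 1 pseudogene under HFD, Rpl31-ps9. Median log2 fold changes of coding members were near 0 under SD (42 of 71 below 0) and -0.29 under HFD (70 of 71), and -0.02 and -0.29 without R-1 and R-12. The interaction of KO and HFD called 0 members (0% of all genes) and had 0 at an unadjusted p under 0.05 (0.84%).

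Among copies of counted genes, 52 of 57 had a lower estimate for KO in aortas than the gene in their symbol, with and without R-1 and R-12, and these differences were not tested. Several of these copies share a gene and are not independent. The same count was not made for other processed pseudogenes, so it need not be particular to the members. The median log2 fold change over the 68 pseudogenes was -0.52 for KO against WT over both diets, 67 of 68 estimates were negative, and 21 of 68 were lower at an unadjusted p under 0.05, against 4.11% of all genes tested. By diet the medians were -0.27 under SD and -0.69 under HFD, and -0.37 and -0.69 without R-1 and R-12. Copies of counted genes had a median of -0.55 with 57 of 57 negative, and those of genes at 0 had -0.18 with 10 of 11 negative. Only Rpl29-ps5 had a positive estimate, 0.12 (standard error 0.44). The 985 other processed pseudogenes that were tested had a median of -0.27 with 3 called, all lower, and all genes 0.00. For 17 copies with every window of read length in another gene the median was -0.40, and for the 32 with none -0.62 (-0.46 and -0.78 without R-1 and R-12). The medians of coding members and copies were -0.16 and -0.55 without R-1 and R-12.

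**Figure D2:**
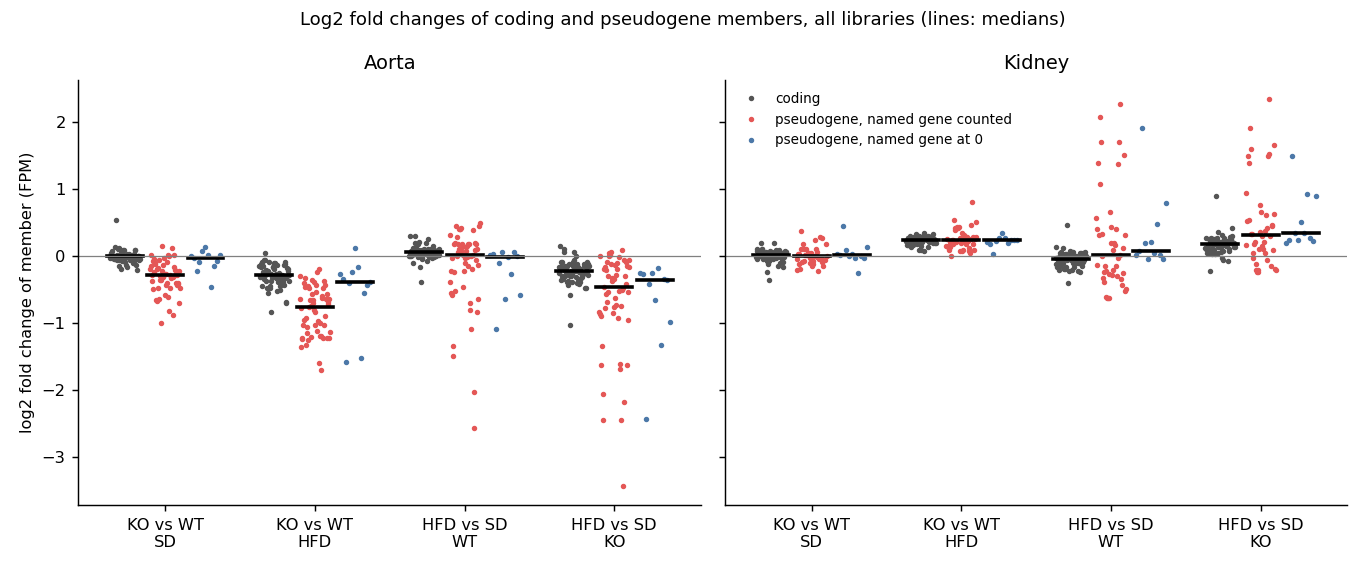
Log2 fold changes from the edgeR fit of all libraries for each coding member, each pseudogene of a counted gene and each pseudogene of a gene at 0, for KO against WT under SD and under HFD and for HFD against SD in WT and in KO, in aortas and kidneys, with the median of each set as a line. Under HFD in aortas, 67 of 68 pseudogenes lie below 0 for KO against WT (median -0.69), and coding members have a median of -0.29.

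Without R-1 and R-12, 3 copies passed the test, all lower in KO: Rps12-ps24, Rpl31-ps9 and Rps3a2. In that fit, 0.806% of 15254 genes were called lower. Rps12-ps24 had 51.5, 56.5, 41.9, 30.8 and 25.1 FPM in WT SD (R-1 to R-5), 49.7, 55.0, 41.2, 28.8 and 10.4 in WT HFD (R-6 to R-10), 31.0, 46.5, 12.6, 12.2 and 14.2 in KO SD (R-11 to R-15) and 17, 11.4, 11.1, 14 and 7.85 in KO HFD (R-16 to R-20). R-10 was as low as the KO libraries, and R-11 and R-12 were as high as WT. The log2 fold change was -1.20 (standard error 0.29, adjusted p = 0.231 in edgeR) over all libraries and -1.37 (standard error 0.28, adjusted p = 0.0283) without R-1 and R-12. Rps12 itself had -0.19 (standard error 0.25, adjusted p = 0.866 in edgeR) over all libraries.

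Rpl31-ps9 had 38.9, 64, 47.3, 35.5 and 34.1 FPM in WT SD, 53.2, 63.8, 56.1, 37.9 and 19.1 in WT HFD, 43.6, 40.2, 19.2, 17.6 and 20.2 in KO SD and 24.1, 16.6, 20.2, 21 and 14.9 in KO HFD, in the same order of libraries. Again R-10 was among the KO values and R-11 and R-12 among the WT values. Its log2 fold change was -0.95 (standard error 0.21, adjusted p = 0.179 in edgeR), and -1.05 (standard error 0.23, adjusted p = 0.0355) without R-1 and R-12. The gene Rpl31 had -0.35 (standard error 0.21, adjusted p = 0.688 in edgeR). Rps3a2 had 82.3, 24.6, 17.1, 17.4 and 18.7 FPM in WT SD, 23.8, 25.4, 18.5, 15.6 and 6.61 in WT HFD, 16.9, 82.3, 5.50, 6.01 and 8.04 in KO SD and 9.78, 7.65, 8.04, 7.09 and 5.97 in KO HFD. R-1 and R-12 stood far above all others. With them the log2 fold change was -0.82 (standard error 0.46, adjusted p = 0.653 in edgeR) and without them -1.16 (standard error 0.24, adjusted p = 0.0299). Rps3a1 had -0.11 (standard error 0.14, adjusted p = 0.869 in edgeR).

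**Figure D3:**
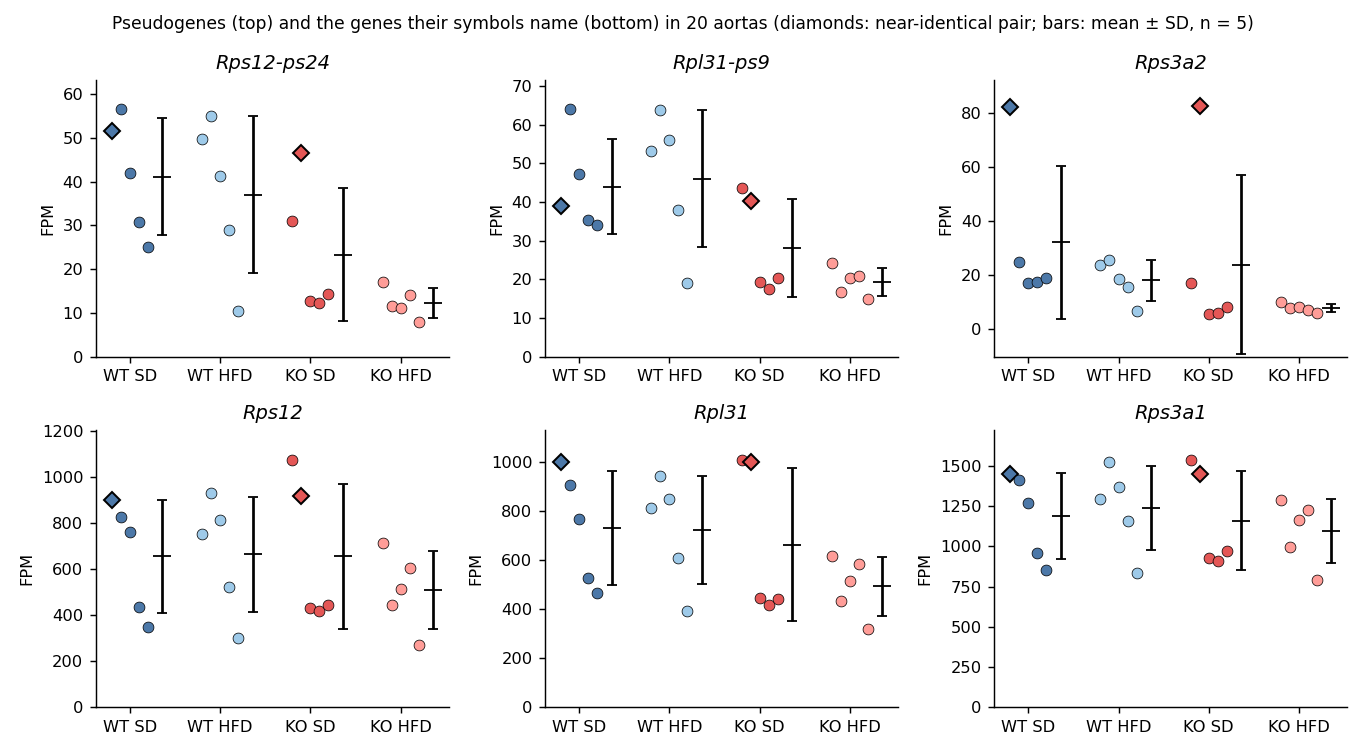
FPM of Rps12-ps24, Rpl31-ps9 and Rps3a2 (top) and of Rps12, Rpl31 and Rps3a1 (bottom) in each aorta library by group, with mean ± SD (n = 5) and diamonds for R-1 and R-12. Rps3a2 stands at 82.3 FPM in R-1 and in R-12 and between 5.50 and 25.4 FPM in the other 18 libraries.

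Set against the gene of the same library, the copies gave these ratios. Without R-1 and R-12, there were 3.49 (R-10) to 7.19 counts of Rps12-ps24 per 100 counts of Rps12 in WT (median 5.92, n = 9) and 2.17 to 3.20 in KO (median 2.89, n = 9), so the genotypes do not overlap. For Rpl31-ps9 per 100 counts of Rpl31 they were 4.86 (R-10) to 7.35 in WT and 3.60 to 4.68 in KO, again without overlap. For Rps3a2 per 100 counts of Rps3a1 the ranges were 0.790 (R-10) to 2.19 in WT and 0.579 to 1.1 (R-11) in KO, which overlap. Rps6-ps4 per 100 counts of Rps6 gave 15.9 to 25.9 in WT and 14.4 to 23.4 in KO. R-1 and R-12 lay at 5.74 and 5.09 for Rps12-ps24, at 3.90 and 4.02 for Rpl31-ps9, at 5.66 and 5.67 for Rps3a2 and at 34.2 each for Rps6-ps4. R-12 (KO) thus fell in the WT range for Rps12-ps24 and R-1 (WT) in the KO range for Rpl31-ps9. In kidneys, by contrast, Rps12-ps24 per 100 counts of Rps12 ranged from 1.13 to 1.70 in WT and from 0.951 to 1.92 in KO without a1 and a12, and Rpl31-ps9 per 100 counts of Rpl31 from 1.91 to 3.26 and from 2.09 to 3.20. These ratios were chosen after the calls and carry no test. The share of all copies whose ratios separate the genotypes was not counted, so the separation adds nothing to the calls.

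No member passed the test for diet in aortas. For HFD against SD over both genotypes, 0 coding members and 0 pseudogenes had an adjusted p under 0.05 in edgeR (0.0529% of all genes had), and neither did any in WT (0.0132%) or in KO (0%). DESeq2 and the likelihood ratio test also called 0. At an unadjusted p under 0.05 there were 0 coding members and 15 lower pseudogenes over both genotypes (6.7% of all genes), 0 and 0 in WT (2.61%) and 0 and 15 in KO (4.56%); without R-1 and R-12, 1 pseudogene was left in the first and in the last. The median log2 fold changes were -0.07 for coding members and -0.20 for pseudogenes, and 0.00 and -0.10 without R-1 and R-12, which are both SD libraries. Coding members with the smallest p were Rpl36a-ps1 at -0.71 (standard error 0.37), Rpl35a at -0.38 (standard error 0.27) and Rpl31 at -0.22 (standard error 0.21) among the lower estimates, and Rpl13a at 0.22 (standard error 0.15), Rpl23a at 0.15 (standard error 0.13) and Rpl7l1 at 0.07 (standard error 0.07) among the higher ones. Without R-1 and R-12, Rpl36a-ps1 had -0.18 (standard error 0.31) and Rpl35a -0.01 (standard error 0.22).

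In kidneys, coding members held 1.70 ± 0.297% of counts in WT SD, 1.75 ± 0.267% in WT HFD, 1.76 ± 0.0779% in KO SD and 2.02 ± 0.313% in KO HFD (SD, n = 5 each), from 1.5% (a19) to 2.29% (a2). Pseudogenes held 0.218 ± 0.0414%, 0.228 ± 0.0539%, 0.225 ± 0.0103% and 0.265 ± 0.0504%. In WT HFD, a12 held 2.20% on coding members and the other libraries 1.55% to 1.71%. Over both genotypes the mean coding share under HFD was 108.7% of that under SD (104.1% without a1 and a12). The pseudogene share was 111.3% (102.9%). Over both diets the coding share in KO was 109.7% of that in WT (111.1% without a1 and a12), and the pseudogene share 109.9% (111.5%). Proximal tubule markers summed to a median of 32994 FPM in WT SD, 24203 in WT HFD, 35544 in KO SD and 27664 in KO HFD. In a18, with the highest coding share of WT SD (2.19%), they summed to 52157 FPM, and endothelial and podocyte markers to 107 and 71.4 FPM, the lowest of the 20 libraries. Their part in these shares was not tested. Of 72 coding members and 55 pseudogenes, 0 were called for KO against WT over both diets, under SD or under HFD, and 0 in the interaction with diet, with 0% of all 15943 genes in each. DESeq2 and the likelihood ratio test called 0 members as well. At an unadjusted p under 0.05 there were 0 members over both diets (4.82% of all genes) and under SD (2.67%), 1 coding member and 5 pseudogenes under HFD (3.42%) and 1 pseudogene in the interaction (1.79%). The 47 copies of at least 98% identity had a median log2 fold change of 0.12 over both diets (0.18 without a1 and a12). With all libraries, median log2 fold changes over both diets were 0.13 for coding members and 0.12 for pseudogenes. Under HFD they were 0.25 and 0.24, with 72 of 72 and 55 of 55 estimates above 0 (48.4% of all genes), yet the smallest adjusted p was 0.814 in edgeR. Without a1 and a12 the medians under HFD were 0.33 and 0.36, and 46 of 72 coding members and 21 of 55 pseudogenes were higher at an unadjusted p under 0.05 (5.9% of all genes), with 0 called and a smallest adjusted p of 0.491 in edgeR. Rps14, the small subunit gene with the smallest coding p over both diets, had 374, 318, 459, 311 and 311 FPM in WT SD (a16 to a20), 328, 451, 347, 308 and 348 in WT HFD (a11 to a15), 363, 363, 385, 403 and 374 in KO SD (a6 to a10) and 450, 500, 329, 440 and 402 in KO HFD (a1 to a5). The groups overlap, and the log2 fold change was 0.17 (standard error 0.09, adjusted p = 0.802 in edgeR). Next were Rpl27 and Rpl9 at 0.16 each, and the 3 coding members with estimates below 0 were Rpl3l (-0.13), Rpl36a-ps1 (-0.02) and Rps18-ps5 (-0.01).

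HFD changed many genes of the kidney, 16.4% of all tested over both genotypes, but hardly the ribosomal protein genes. Of the coding members, 0 of 72 were called, and 1 of 55 pseudogenes, Rpl21-ps10. Rpl21-ps10 had 0.832, 0.730, 1.66, 0.609 and 0.993 FPM in WT SD, 0.716, 16.2, 0.808, 1.22 and 0.919 in WT HFD, 1.22, 1.32, 1.49, 0.798 and 1.44 in KO SD and 17, 1.6, 1.49, 1.66 and 1.28 in KO HFD. Only a1 and a12 exceeded 1.66 FPM. Its log2 fold change was 2.00 (standard error 0.66, adjusted p = 0.0447 in edgeR), and without a1 and a12 0.10 (standard error 0.19, adjusted p = 0.780). Its call was lost in 12 of 20 fits that leave out 1 library, those without a1, without a12 and without each of the 10 SD libraries. Without a1 or a12 the log2 fold change fell to 1.18 and 0.93, and without an SD library it stayed between 1.93 and 2.17. At an unadjusted p under 0.05 there were 1 coding member and 12 pseudogenes, all higher (29.9% of all genes). DESeq2's Wald test called 0 members and the likelihood ratio test 8 pseudogenes. In WT and in KO alone, 0 members were called in edgeR, DESeq2 or the likelihood ratio test, where edgeR called 6.71% and 6.34% of all genes, and 2 pseudogenes in WT (19.4% of all genes) and 2 coding members and 2 pseudogenes in KO (19.5%) had an unadjusted p under 0.05. Medians for HFD over both genotypes were 0.07 for coding members and 0.20 for pseudogenes, and -0.02 and -0.06 without a1 and a12. For HFD in WT they moved from -0.05 and 0.04 to -0.18 and -0.24 without a1 and a12, and in KO from 0.18 and 0.33 to 0.14 and 0.12.

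Without a1 and a12, 1 coding member passed the test for HFD against SD over both genotypes, Rpl23a, a protein of the large subunit near the exit of the nascent chain. It had 103, 91.4, 104, 88.1 and 94.9 FPM in WT SD, 107, 71.6, 109, 96.8 and 111 in WT HFD, 105, 101, 99.7, 106 and 104 in KO SD and 71.2, 129, 114, 124 and 118 in KO HFD. The low values are those of a12 and a1. In KO the other HFD libraries all lay above the SD libraries, whereas in WT these overlapped (96.8 to 111 against 88.1 to 104 FPM). The share of all genes that separate in this way was not counted without a1 and a12. Without a1 and a12 the log2 fold change was 0.19 (standard error 0.05, adjusted p = 0.00979 in edgeR), where 6.73% of 16043 genes were called higher. For HFD in KO it was 0.23 (standard error 0.07, adjusted p = 0.0424 in edgeR), with 2.74% called higher. With all libraries it was 0.08 (standard error 0.09, adjusted p = 0.631 in edgeR). The smallest p among coding members with all libraries was that of Rpl3, a protein of the large subunit, at 0.19 (standard error 0.09, adjusted p = 0.147 in edgeR), followed by Rpl36a-ps1 at 0.68 and Rplp0 at 0.19. The lower estimates with the smallest p were Rpl22l1 at -0.18, Rpl9-ps6 at -0.11 and Rps19bp1 at -0.15.

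Among the members, the near-identical libraries lay outside the range of the other 18 of their tissue more often for copies than for coding genes. In aortas R-1 and R-12 both lay above the range of the other 18 libraries for 26 of 68 pseudogenes (38.2%) and below it for 7 (10.3%), where all genes gave 4.54% and 1.71%. For coding members these numbers were 3 and 2 of 71. In kidneys a1 and a12 were above the others for 31 of 55 pseudogenes (56.4%) and below for 10 (18.2%), against 6.35% and 4.39% of all genes and 11 and 3 of 72 coding members. Other processed pseudogenes were above in 35.7% of 985 in aortas and in 44.9% of 955 in kidneys. The direction was shared by the tissues. Of the 55 pseudogenes in both, 23 were above in both, 7 below in both and 0 above in aortas and below in kidneys or the reverse, and the log2 ratio to the median of the other 18 had r = 0.987 across these copies (r = 0.855 across 70 coding members, genes not being independent). Agreement between tissues was not counted over all genes or over other processed pseudogenes, so it need not be particular to these copies. The higher depth of the near-identical libraries moved with these values, and its part was not tested.

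In aortas the highest ratios were those of Rps19-ps1 (34.0 times the median of the other 18 libraries) and Rps19-ps2 (19.1 times), which are members in aortas alone. Among copies in both tissues, Rpl21-ps10 stood at 16.9 times the median of the other 18 libraries in aortas and 13.6 times in kidneys, Rpl21-ps8 at 12.3 and 11.2, Rpl13-ps3 at 12.1 and 13.1 and Rps13-ps5 at 10.2 and 21.6. Rps13-ps2 (7.31 and 10.3 times), Rps3a2 (6.49 and 11.4), Rpl17-ps5 (6.48 and 10.1) and Rps13-ps1 (6.12 and 9.82) followed. Copies below the others included those of Rpl35a, led by Rpl35a-ps6 at 0.0364 and 0.0243 times, and Rpl30-ps1 (0.270 and 0.213). The coding members above in both tissues were Rpl35a (2.62 and 2.1 times), Rpl36a-ps1 (3.69 and 4.35) and Rpl12 (1.51 and 1.54), and Rpl23a (0.65 and 0.68) and Rpl9-ps6 (0.68 and 0.76) were below in both.

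**Figure D4:**
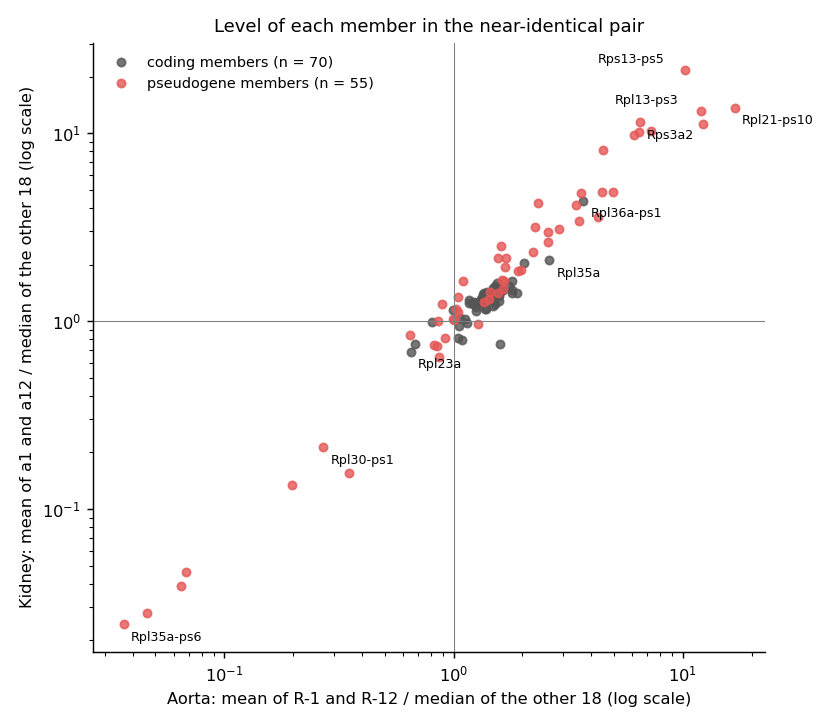
Ratio of the mean FPM of the near-identical libraries to the median of the other 18 libraries, in aortas (x axis) and kidneys (y axis), both on log scales, for 70 coding members and 55 pseudogenes in both tissues. The copies spread along the diagonal from the Rpl35a copies at the lower left to Rps13-ps5 and Rpl21-ps10 at the upper right, and most coding members lie near the centre.

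Rpl35a and its 4 copies of shared sequence moved in opposite directions in these libraries. In R-1 and R-12, Rpl35a had 756 and 761 FPM and each copy 6.64 to 12.9 FPM. In the other 18 aortas, Rpl35a had 153 to 508 FPM, and the copies summed to 383 to 1350 FPM. Per 100 counts of Rpl35a the copies thus held 3.98 to 5.72 in R-1 and R-12 and 222 to 295 in the others, with no overlap. Rpl35a-ps2 alone had 12.9, 286, 253, 169 and 129 FPM in WT SD, 269, 315, 263, 192 and 88.2 in WT HFD, 279, 8.13, 120, 123 and 135 in KO SD and 182, 125, 140.6, 142 and 80.2 in KO HFD. In kidneys a1 and a12 had 335 FPM each for Rpl35a and 9.92 to 11.5 FPM for the sum of copies, whereas the others had 123 to 240 and 246 to 482 FPM, or 2.96 to 3.44 against 192 to 234 copy counts per 100. Rpl35a with the mean, not the sum, of its copies gave 767 and 768 FPM in R-1 and R-12 and 248 to 819 FPM in the other aortas. In kidneys this total was 338 FPM in both a1 and a12 and 185 to 360 FPM in the others. Whether the mean or the sum fits depends on how shared reads were counted, which is not given. No conclusion is therefore drawn from these totals. Totals with the sum were not tabulated and can lie otherwise. In a14, with the lowest sum of copies of the other 18 kidneys, Rpl35a had 124 FPM and its copies 246 FPM. In a1 these values were 335 and 11.5 FPM.

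**Figure D5:**
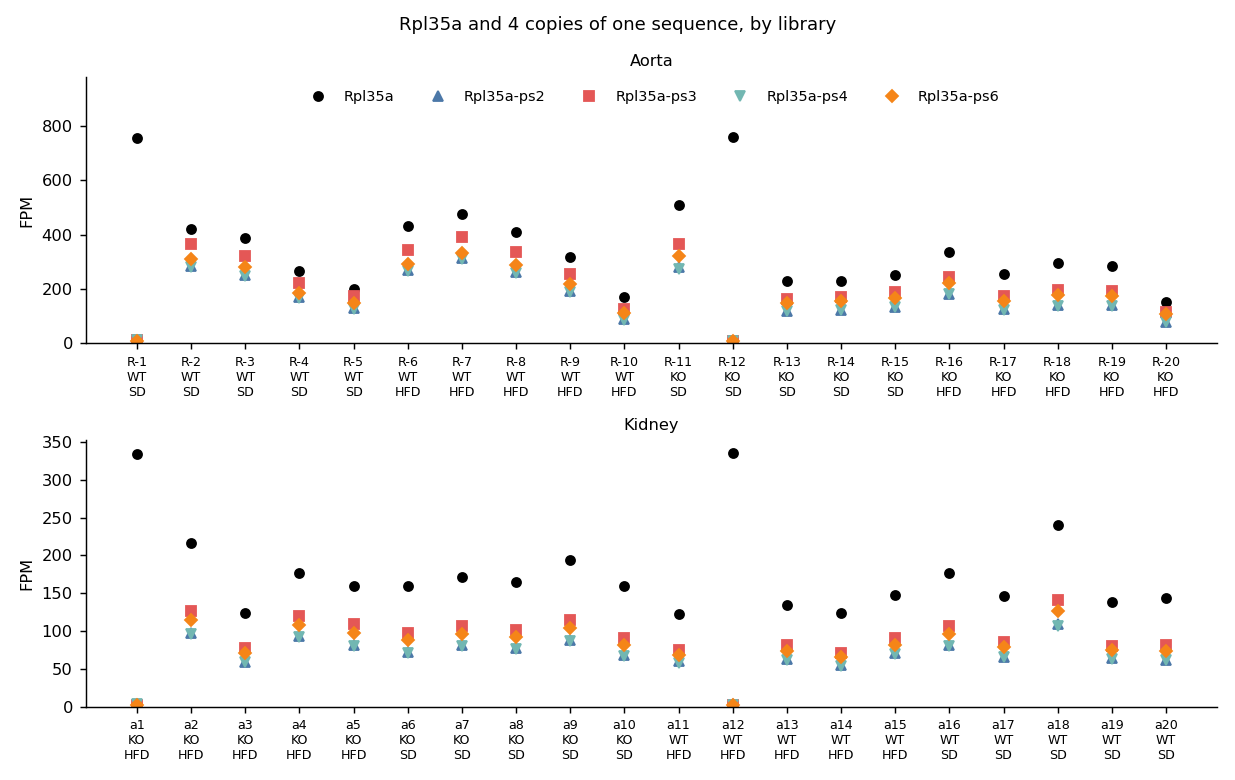
FPM of Rpl35a and of its copies Rpl35a-ps2, Rpl35a-ps3, Rpl35a-ps4 and Rpl35a-ps6 in each library, on a linear axis, for aortas and kidneys. The copies drop to 6.64 to 12.9 FPM in R-1 and R-12 and to 1.94 to 3.67 FPM in a1 and a12, where Rpl35a is highest.

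Other genes linked to the ribosome were counted in the same way. Among 74 mitochondrial ribosomal protein genes, 20 counted TOP and ribosome-linked genes and 27 counted genes of ribosome biogenesis, 0 were called for KO against WT over both diets in either tissue. Their median log2 fold changes in aortas were -0.16, -0.07 and -0.08, beside -0.16 for the coding members, and in kidneys 0.10, 0.09 and 0.04. For HFD over both genotypes, 0 were called in aortas, with medians of -0.03, 0.00 and 0.04. In kidneys 2 mitochondrial ribosomal protein genes were called higher and 3 lower, 1 TOP-linked gene lower and 2 biogenesis genes lower, with medians of -0.03, 0.05 and -0.06. By symbol, 39 of 42 coding members named Rpl had negative estimates for KO in aortas with a median of -0.12, and 28 of 29 named Rps, Rps19bp1 among them, with a median of -0.17.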

How the data were processed

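Poly(A)-selected RNA had been sequenced for 20 aorta and 20 kidney libraries as paired reads of 150 bases. The deposited values are raw counts of reads per gene in 1 table for each tissue, which the authors made, per the submitters' processing notes, with HISAT2 2.1.0 and featureCounts on mm10, whereas the methods of the study name TopHat2. The handling of reads with several positions and of strand is not given in the sources used here. Members and lists were chosen with earlier results of these data known. Counts were tested in R 4.3.3 with edgeR 4.0.16 (limma 3.58.1): TMM normalization, filterByExpr by group, robust quasi-likelihood test, 1 fit of the 4 groups per tissue, Benjamini-Hochberg adjustment over 15122 genes in aortas and 15943 in kidneys, and a threshold of 0.05. DESeq2 1.42.0 was an alternative. All 40 libraries were used, and the total counts given per tissue set the precision. Pseudogenes were aligned to the transcripts of the gene in their symbol with blastn 2.17.0 on GENCODE M21, and start sites were read from RefSeq (GRCm38.p6).

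Named are members called in a comparison, pseudogenes with at least 5 CPM, the 5 highest and 5 lowest coding members per kilobase, the 3 coding members with the smallest p in each direction for genotype and for diet, and paralogs. Genes named for the near-identical libraries were chosen after their values were seen. On simulated counts for KO against WT over both diets, 96% of changes of log2 1 in aortas and 100% in kidneys were recovered (100 genes each), with 9 of 15008 and 8 of 15863 tested genes called without a change. The simulation gave all genes of a tissue the same spread between libraries (29.0% in aortas and 22.3% in kidneys). It changed only genes of at least 5 CPM and held no near-identical or outlying libraries. These rates therefore do not measure how many changes among the copies could be detected. Alternatives were other scalings, filters and tests, the compared groups alone, and libraries left out. Items that the rule for names would include are not reported here.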

Additional observations from a re-analysis of the deposited data

Results flagged for a closer look

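A library of a group of 5 is listed here where its gap to the nearest other, divided by the range of the group, exceeded 0.71. Of 88 groups tested, 11 did so, where chance gives about 1 in 20. That rate is no measure here, since several of the genes were chosen with the near-identical libraries in view and the quantities are not independent. In aortas these were the FPM of Rps3a2 in R-1 within WT SD (0.885) and in R-12 within KO SD (0.851). In kidneys, a12 stood apart within WT HFD in the coding sum (0.748), the pseudogene sum (0.746), Rpl21-ps10 (0.967), Rpl21 (0.752), Rpl35a (0.882) and Rpl35a-ps2 (0.765). Within KO HFD, a1 stood apart in pseudogene counts per 100 coding counts (0.838), Rpl21-ps10 (0.976) and Rpl23a (0.739). All of these libraries belong to the near-identical ones.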

How the results depend on the processing

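For KO against WT over both diets in aortas, 0 pseudogenes were called, against 2 with DESeq2's Wald test or edgeR's likelihood ratio test and 3 without R-1 and R-12. Under HFD, 0 became 1 with both of these tests. Leaving out each library in turn gave 0 to 3 (3 without R-12 and 1 without R-10). For HFD against SD over both genotypes in kidneys, 1 pseudogene was called, against 0 with DESeq2's Wald test, without a filter on low counts or without a1 and a12, 3 with a filter of mean CPM of at least 1, 4 without robust estimation and 8 with the likelihood ratio test. Leaving out each library gave 0 to 4 pseudogenes (0 without a1, a12 or any SD library, 2 to 4 without any other, so that no such fit kept 1) and 0 to 2 coding members (2 without a18, Rpl3 and Rplp0). Without a1 and a12, 1 coding member, Rpl23a, was called over both genotypes and 1 for HFD in KO. The log2 fold change of Rpl21-ps10 ranged from 0.93 (without a12) to 2.17, and 12 of 20 such fits lost its call. The cause was not tested. Over the other settings, which leave out no single library, 125 results for coding members and 116 for pseudogenes kept their count and 2 and 11 moved. The summed levels moved by less than the spread between libraries. No paired analysis was possible because the replicate names (R-1 to R-20, a1 to a20) are not shared between groups. Depth does not limit the abundant coding genes, whereas copies near 1 CPM rest on few reads.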
